A study of Mus musculus with 12 samples.

Results

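The comparison described here set mouse testes given a virus meant to raise the long noncoding RNA lncRNA8276 (OV) against testes of the group labelled 5NC, taken here as the control virus of the overexpression arm. It covers 6 of the 12 RNA-seq libraries of the series, 3 from OV and 3 from 5NC, chosen by their labels alone and compared across all genes. OV libraries come from testes of F0 mice, of a strain given as IRC mouse, infected with the overexpressing virus, and 5NC libraries from F0 testes of the same strain under the treatment label 5NC. The abbreviation 5NC is not explained, and its role as control was inferred from the order of groups in the design statement. The other 6 libraries, used here for the shared estimate of spread and for context, come from a knockdown group (KD) and from a second control group (3NC). The virus type, its promoter and the cells it reached, the age of the mice, and whether libraries of a group are separate animals are not stated in the labels, so a p-value here reflects how these libraries vary, which may be technical. Of the symbols in the table, 0 hold the digits 8276, so the level of the overexpressed RNA itself was not analysed here.

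The testis shelters developing germ cells from immune attack: tight junctions between Sertoli cells enclose the meiotic and haploid germ cells, and resident macrophages lie among the androgen-producing Leydig cells outside the tubules. Cells display peptides cut by the proteasome on MHC class I molecules, each a heavy chain paired with beta 2-microglobulin, while MHC class II molecules display peptides from endosomes and are made mainly by macrophages, dendritic cells and B cells. Interferon gamma raises both sets of genes through the transcription factor IRF1 and through the activators NLRC5 for class I and CIITA for class II, and interferons also raise large families of guanylate-binding proteins and immunity-related GTPases that attack intracellular pathogens.

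The 6 libraries held 15448446 to 16120813 estimated reads, and 18638 to 18788 genes had at least 1 read. A count of 3 reads, taken as the floor, equals 0.184 to 0.197 CPM (counts scaled to a common library size after TMM normalisation, the trimmed mean of M values). Along the first principal component of the 6 libraries, which held 31.1% of the variance, the OV libraries scored 8.19, 1.77 and 25.1 for T numbers 1, 2 and 3, and the 5NC libraries −17.5, −8.68 and −8.89. The groups did not overlap on this axis, with the T3 OV library farthest out. Markers of testis were abundant in every library. Protamine Prm1, which packs sperm DNA, stood at 3184, 2938 and 2951 CPM in OV and at 2683, 3423 and 3074 CPM in 5NC, and the Leydig cell hormone Insl3 at 689, 689.9 and 691 CPM in OV and at 1548, 756 and 824 CPM in 5NC. The Prm1 values interleave, and the Insl3 values do not, with the T1 library of 5NC far above the other two.

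Gene lists of antigen presentation and of the interferon response had higher medians in OV testes in each of the 3 T-numbered pairs. The medians of Leydig, Sertoli, peritubular muscle and ribosomal protein genes were lower in each pair, by less and with fewer genes called. The macrophage, complement and dendritic cell, granulocyte and mast cell lists were also higher in each pair. The fat cell, endothelial, epididymal and blood-testis barrier lists were also lower in each. Over all genes tested, the median was −0.017, −0.0013 and −0.0042 in the T1, T2 and T3 pairs. Of the genes called lower, 63 of 83 were on none of the 30 lists. Whether these differences passed a test across all genes depended on the pairing. With the T number kept as a pair in a fit of the 6 libraries, edgeR's quasi-likelihood test called 132 genes higher in OV (0.828% of 15950 tested) and 83 lower (0.52%) at an adjusted p under 0.05. In the fit to all 12 libraries without pairing, 0 of 16320 genes were called in either direction (0%), with a smallest edgeR adjusted p of 0.239, although 1697 genes (10.4%) had an unadjusted p under 0.05. DESeq2 on the same unpaired design called 46 genes and limma with voom and sample weights called 7. With the pair kept across all 4 groups, 0 genes passed in edgeR, and the smallest adjusted p was 0.0956. All 215 genes called in the paired fit had the same sign in the unpaired fit, and 131 of the 132 higher and all 83 lower ones had the same sign in each of the 3 pairs. Since genes called in this way had to be alike across pairs, that count describes them and is no further support.

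**Figure D1:**
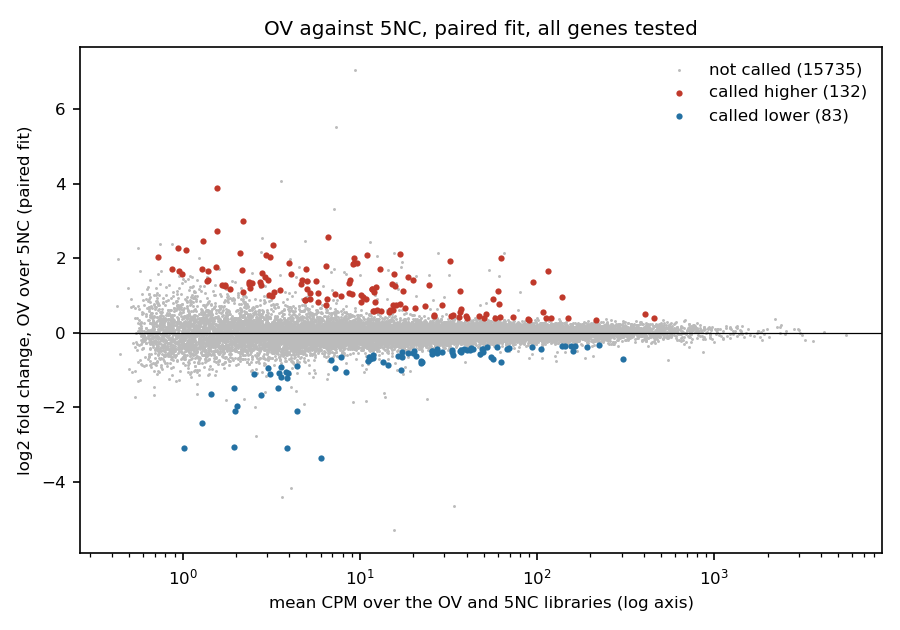
Each point is 1 of 15950 genes, by its mean CPM over the OV and 5NC libraries (log axis) and its log2 fold change of OV over 5NC in the paired fit; coloured points were called. The 132 genes called higher reach larger folds than most of the 83 called lower, of which 63 lie within 2-fold.

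The called genes differed in size by direction. Of the 132 higher genes, 80 exceeded a 2-fold difference and the median log2 fold change was 1.13, whereas 20 of the 83 lower genes exceeded it and their median was −0.62. The OV and 5NC libraries did not overlap for 76 of the higher genes and 69 of the lower ones. Over all genes tested, 7% did not overlap with OV higher and 8.09% with OV lower. Against the whole series, all 3 OV libraries stood above the other 9 libraries, 5NC, 3NC and KD together, for 25 of the 132 higher genes (18.9%, against 0.52% of all genes tested), and below the other 9 for 8 of the 83 lower genes (9.64%, against 0.401%). For 23 of the 83 lower genes it was the 5NC libraries that stood above all 9 others (27.7%, against 1.35%), and for 11 of the 132 higher genes it was 5NC that stood below them (8.33%, against 1.24%). The called genes were chosen because OV and 5NC differed in these same libraries. Larger shares than over all genes thus follow at least in part from that choice and are no further support.

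MHC class I presentation held the genes with the smallest p-values together with class II. Of 23 tested members of the class I list, 11 rose and 0 fell in the paired fit, with a median log2 fold change of 0.82 over the list, against −0.01 over all genes tested. H2-D1, a classical class I heavy chain (gene 14964, chromosome 17, 35263094 to 35267497, build mm10), had 204, 155 and 165 CPM in the T1, T2 and T3 libraries of OV and 74.5, 45.8 and 47.3 CPM in those of 5NC. The lowest OV library was above every other library of the series, of which the highest was 3NC replicate 2 at 99.8 CPM. Such a gap held for 8 of the 42 genes called higher on the antigen presentation and interferon lists (19.0%). It held for 17 of the 90 others called higher (18.9%). The paired log2 fold change of H2-D1 was 1.67 ± 0.10 (SE, edgeR adjusted p = 4.74e-16). B2m, the beta 2-microglobulin light chain (chromosome 2, 122147687 to 122153082), had 176, 110.4 and 124 CPM in OV and 64.5, 50.9 and 43.2 CPM in 5NC, with a log2 fold change of 1.37 ± 0.10 (edgeR adjusted p = 3.23e-13). H2-K1, the other classical heavy chain in the list (chromosome 17, 33996012 to 34000619), had 247, 173 and 132 CPM in OV and 113, 85.8 and 78.1 CPM in 5NC, and a log2 fold change of 0.97 ± 0.09. The groups were apart for all 3 genes. Per transcript length, on the deposited FPKM scale (fragments scaled by transcript length and library size), the light chain B2m was the most abundant of the 3, with 189 ± 49.1 FPKM in OV and 73.4 ± 17.4 in 5NC (SD, n = 3). H2-D1 had 109 ± 16.9 FPKM in OV and 35.3 ± 11.6 in 5NC, and H2-K1 104 ± 28.9 in OV and 53.9 ± 13.5 in 5NC, so H2-K1 had the higher mean in 5NC and the heavy chains were alike within their spread in OV. Reads of H2 heavy chains can be shared between close paralogs, which makes their single values uncertain.

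The genes that make and load class I peptides moved with the heavy chains. Psmb8, an immunoproteasome subunit, had 17.4, 17.9 and 8.02 CPM in OV and 4.92, 5.27 and 1.92 CPM in 5NC, with a log2 fold change of 1.86 ± 0.18. The other immunoproteasome subunits rose by 1.80 (Psmb9) and 0.99 (Psmb10), and the peptide transporter subunits by 1.59 (Tap1) and 1.17 (Tap2), all on the log2 scale. The T3 library was the lowest of OV for each of these 5 genes, and for the last 4 it lay within the range of 5NC although it exceeded its own pair. Erap1, which trims peptides in the endoplasmic reticulum, rose by 0.82. Nlrc5, the activator of class I genes, had 13.9, 12.1 and 10.4 CPM in OV and 5.59, 6.25 and 5.76 CPM in 5NC, with a log2 fold change of 1.04 ± 0.17. The OV and 5NC groups were apart for Nlrc5, and the 3NC libraries spread over 7.48 to 12.8 CPM. Chaperones of class I folding did not pass: Calr had a log2 fold change of −0.04, Canx 0.05, Pdia3 0.09 and tapasin, Tapbp, 0.12. H2-T23, a nonclassical heavy chain recognised by natural killer cell receptors (chromosome 17, 36029977 to 36032701), had 26.3, 25.2 and 9.27 CPM in OV and 6.15, 7.17 and 4.10 CPM in 5NC, with a log2 fold change of 1.73 ± 0.17.

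Interferon factors act at the promoters of these genes, and the promoters of 2 called members with the core of the interferon-stimulated response element, together with the stretch between the divergent genes Psmb9 and Tap1, are printed here. The sequences are the 250 bases before the RefSeq start (GRCm38.p6), read 5′ to 3′ on the gene's strand, with the response element core (GAAA, any 2 bases, then GAAA, on either strand) in capitals. B2m lies on the plus strand (chr2:122147437-122147686) with its match at −139 to −130 from the start. H2-T23 lies on the minus strand (chr17:36032702-36032951) with its match at −124 to −115. The 225 bases between Psmb9 and Tap1 (chr17:34187331-34187555, plus strand) do not hold these letters.
B2m: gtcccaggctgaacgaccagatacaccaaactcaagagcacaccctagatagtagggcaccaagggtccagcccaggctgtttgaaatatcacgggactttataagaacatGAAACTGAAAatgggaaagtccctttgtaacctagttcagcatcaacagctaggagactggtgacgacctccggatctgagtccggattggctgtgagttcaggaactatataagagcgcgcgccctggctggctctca
H2-T23: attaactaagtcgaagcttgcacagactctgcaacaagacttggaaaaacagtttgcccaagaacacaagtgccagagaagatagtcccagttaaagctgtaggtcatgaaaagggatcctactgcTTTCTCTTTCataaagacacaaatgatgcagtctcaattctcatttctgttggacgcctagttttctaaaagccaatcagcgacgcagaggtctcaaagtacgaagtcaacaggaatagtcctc
Psmb9-Tap1: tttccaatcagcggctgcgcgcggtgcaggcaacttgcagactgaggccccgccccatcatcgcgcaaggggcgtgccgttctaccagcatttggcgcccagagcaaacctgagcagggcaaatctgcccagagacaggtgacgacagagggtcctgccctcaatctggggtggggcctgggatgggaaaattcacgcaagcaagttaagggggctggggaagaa

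Of the genes called higher, 100 matched a promoter in the RefSeq table, and 17 of them (17%) held this core within 250 bases before a start, against 398 of 12650 tested genes with a promoter (3.15%) and 2 of 62 called lower (3.23%). Among the 30 matched genes called higher on the antigen presentation and interferon lists, 12 (40%) held it. Those lists were chosen for their link to interferon, and their members without a call were not set beside these. Other letters were also more frequent among genes called higher. TTC, any 3 bases, then GAA was held by 16% of them, 7.43% of tested genes and 9.68% of those called lower. For CCAAT the shares were 54%, 40.4% and 43.5%. These shares are descriptions of the letters in this window. A match is not a bound site, and the absence of one says nothing of the factor.

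MHC class II presentation genes rose as well. Of 11 tested members, 6 rose and 0 fell, with a median log2 fold change of 1.30. The 2 groups did not overlap for 6 of the 11, with OV higher, against 7% of all genes tested. The whole list summed to 459, 316 and 197 CPM in OV, 176, 151 and 102 CPM in 5NC and 189 CPM in 3NC replicate 2. Cd74, the invariant chain that escorts class II molecules to endosomes (gene 16149, chromosome 18, 60803849 to 60812652), had 151, 99.9 and 52.9 CPM in OV and 32.8, 29.2 and 12.4 CPM in 5NC. The order of the T numbers was the same in both groups, T1 highest and T3 lowest, and its log2 fold change of 2.02 ± 0.11 had the smallest adjusted p of all genes tested (edgeR, 3.44e-17). H2-Aa, the class II alpha chain (chromosome 17, 34282744 to 34287823), had 72.3, 48.6 and 32.3 CPM in OV and 19.8, 14.8 and 6.78 CPM in 5NC, with a log2 fold change of 1.93 ± 0.12. Its partner H2-Ab1 rose by 1.12, and H2-DMb1, a subunit of the peptide exchange factor, by 1.5. Ciita, the activator of class II genes (chromosome 16, 10480014 to 10531064), had 5.88, 8.08 and 2.18 CPM in OV and 0.676, 2.17 and 0.448 CPM in 5NC, with a log2 fold change of 2.36 ± 0.29 (edgeR adjusted p = 5.02e-07). Ctss, the protease that removes the invariant chain, had 33.2, 19.0 and 13.7 CPM in OV and 10.9, 8.03 and 6.85 CPM in 5NC, a log2 fold change of 1.30 ± 0.15. The groups were apart for all of these except H2-Ab1. In the unpaired fit of all groups the folds were alike, 2.03 ± 0.65 for Cd74 and 1.65 ± 0.27 for H2-D1, and the edgeR adjusted p-values were 0.419 and 0.258.

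**Figure D2:**
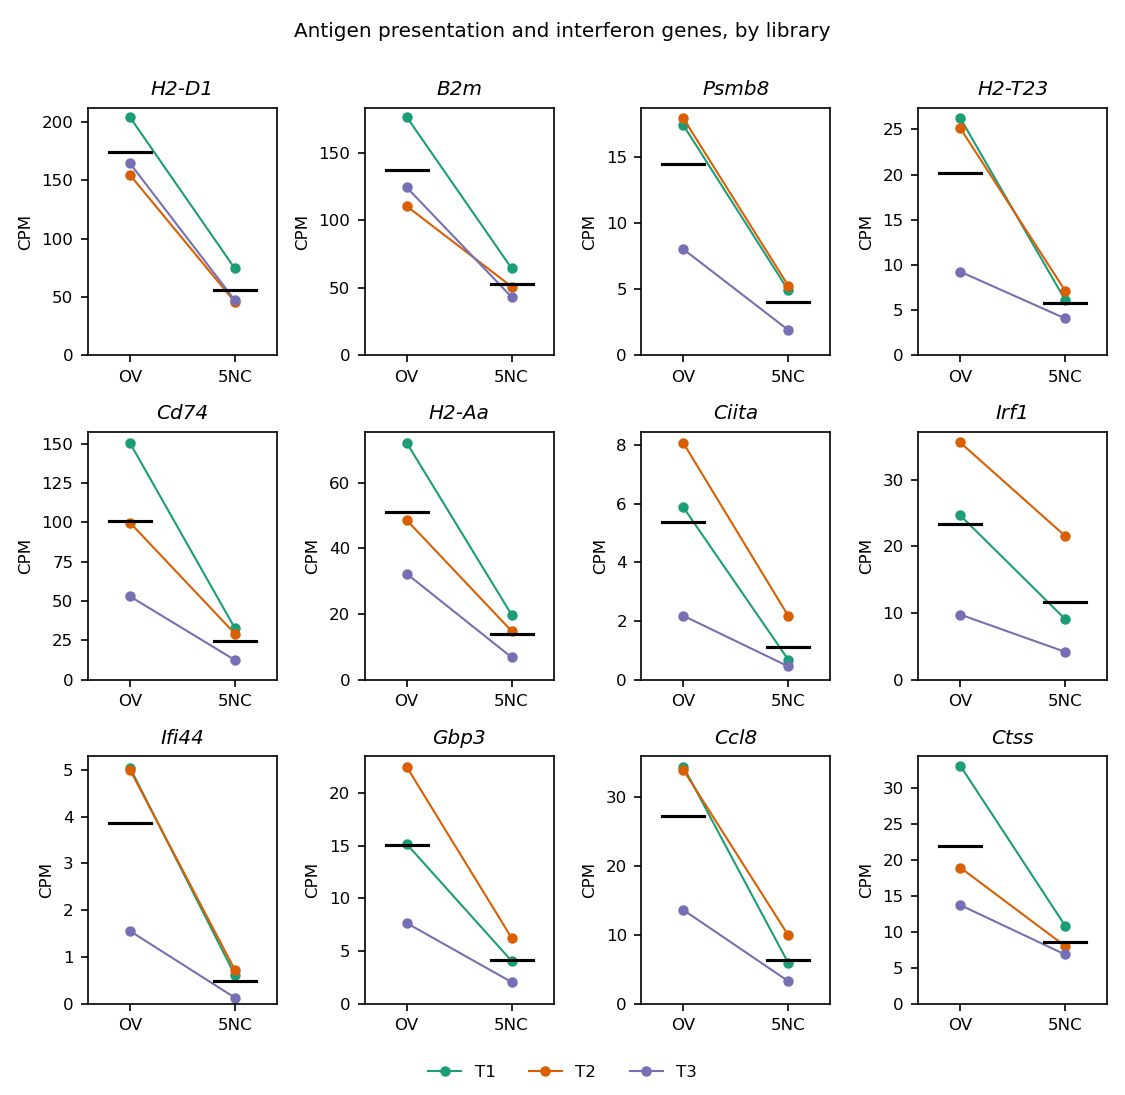
CPM of 12 genes in the 3 OV and 3 5NC libraries; lines join libraries of the same T number and black bars are group means. In all 12 panels each OV library lies above the 5NC library of its own number, and T3 is the lowest of the OV libraries in every panel except those of H2-D1 and B2m.

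The interferon response list had 17 of 40 tested members higher, 0 lower, and a median log2 fold change of 0.87, while DESeq2 with the same pairs called 8 higher. The whole list summed to 542, 576 and 361 CPM in OV and 350, 384 and 266 CPM in 5NC. In 3NC replicate 2 the sum was 404 CPM, so it and the T2 library of 5NC stood above the T3 library of OV. Irf1, a transcription factor that drives antigen presentation genes, had 24.7, 35.6 and 9.76 CPM in OV and 9.10, 21.6 and 4.16 CPM in 5NC. The T3 library of OV lay below the T2 library of 5NC, so the groups overlapped, while within each pair OV was higher, with a log2 fold change of 1.11 ± 0.15 (edgeR adjusted p = 9.02e-06). Ifi44, an interferon-induced gene, had 5.05, 5.01 and 1.55 CPM in OV and 0.615, 0.724 and 0.128 CPM in 5NC, the last being below the floor of 3 reads, with a fitted log2 fold change of 3.00 ± 0.34. Ifi44 was apart between the groups. Oasl2 rose by 1.08 on the log2 scale, Stat2 by 0.75, Irf7 by 1.17 and the nucleic acid sensor Zbp1 by 2.08. The transcript of interferon gamma itself, Ifng, had 1 read in the 3 OV libraries together and 0 in the 3 5NC libraries.

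All 17 tested members of the interferon-inducible GTPase families had a higher mean in OV, 8 passed the test, and the median log2 fold change was 1.85, the highest of the 30 lists described. Of the 17, 1 did not overlap between the groups, where 7% of all genes tested did not overlap with OV higher, so this count did not stand out. The level varied widely with the T number. Summed over the list, OV libraries held 391, 637 and 184 CPM and 5NC libraries 86.6, 310 and 31.4 CPM. The T2 library was the highest in both groups and T3 the lowest. The same sum was 28.3, 319 and 51.7 CPM in 3NC and 26.2 to 36.2 CPM in KD, so a control library outside the comparison, 3NC replicate 2, also stood above its group. Gbp3, a guanylate-binding protein, had 15.2, 22.5 and 7.65 CPM in OV and 4.06, 6.25 and 2.05 CPM in 5NC, with a log2 fold change of 1.88 ± 0.17 (edgeR adjusted p = 6.66e-10), and was the member whose groups were apart. Gbp7 had 27.0, 38.6 and 15.6 CPM in OV and 9.47, 17.0 and 4.29 CPM in 5NC, a log2 fold change of 1.49 ± 0.15. Its promoter (chr3:142530086-142530335, plus strand, GRCm38.p6) is shown because it holds the same response element letters close to the start, at −53 to −44, in capitals.
Gbp7: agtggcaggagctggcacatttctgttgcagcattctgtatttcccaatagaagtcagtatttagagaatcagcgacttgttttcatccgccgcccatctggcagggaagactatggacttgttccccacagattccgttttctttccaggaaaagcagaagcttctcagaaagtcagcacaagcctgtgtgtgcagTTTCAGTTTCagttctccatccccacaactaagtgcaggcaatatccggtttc

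Gbp9 rose by 1.42 and Gbp5 by 1.35 on the log2 scale. Among the immunity-related GTPases, Irgm1 rose by 1.42 and Ifi47 by 1.85. Iigp1, with a log2 fold change of 2.16, and Igtp, with 1.52, did not pass. Guanylate-binding proteins form a family of near copies among which reads may be split, so single members are uncertain.

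**Figure D3:**
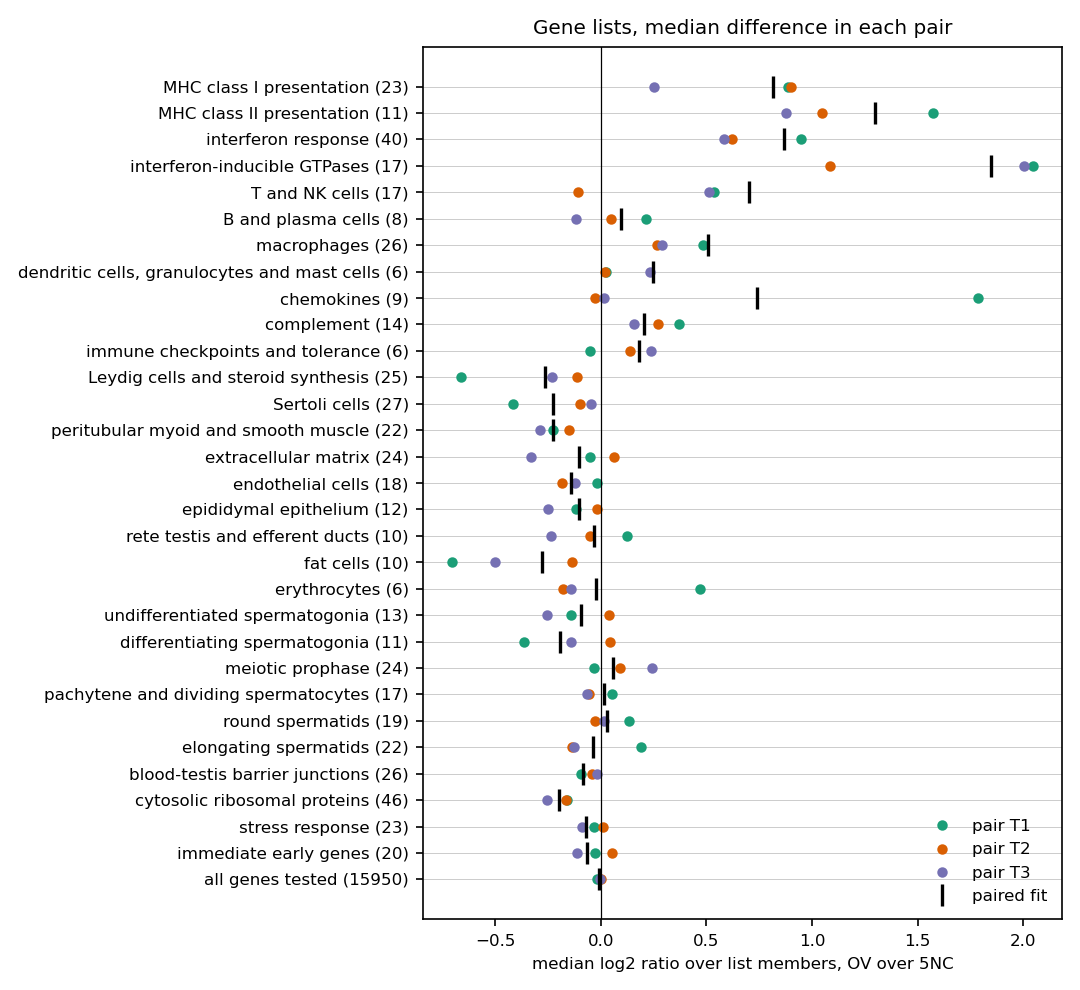
Median log2 ratio of OV over 5NC over the tested members of 30 gene lists and over all genes tested, for each pair (coloured points) and for the paired fit (black bars); member numbers are in parentheses. The antigen presentation, interferon and GTPase lists lie to the right in all 3 pairs, and the Leydig, Sertoli, peritubular and ribosomal lists to the left in all 3. The macrophage, complement and dendritic cell, granulocyte and mast cell lists also lie to the right in all 3. The fat cell, endothelial, epididymal and blood-testis barrier lists also lie to the left in all 3.

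Markers of immune cells were measured beside these genes. Of 26 tested macrophage markers, 23 had a higher mean in OV and 3 a lower one, with a median log2 fold change of 0.51. In edgeR 5 rose and 1 fell, and 0 were called by DESeq2 with the same pairs. The markers summed to 657, 528 and 525 CPM in OV and 506, 509 and 496 CPM in 5NC. All 3 OV sums were above the 5NC sums, the T1 library by most. Ptprc, the leukocyte antigen CD45, had 10.3, 4.32 and 5.54 CPM in OV and 3.13, 2.57 and 2.05 CPM in 5NC, with a log2 fold change of 1.32 ± 0.23 (edgeR adjusted p = 0.000318). C1qa and C1qc, complement chains made by tissue macrophages, rose by 0.76 and 0.74, and Laptm5, a lysosomal protein of leukocytes, by 0.91, each with the highest value in the T1 library of OV. Without the T1 pair, these last 3 no longer passed and 1 macrophage marker was called higher. Among general macrophage markers that did not pass, Csf1r, the receptor for the macrophage growth factor, had a log2 fold change of 0.43. Adgre1 (F4/80) had 0.57 and Cd68 0.10. Csf1r and Adgre1 were higher in OV in each of the 3 pairs, and Cd68 was lower in the T1 pair. Trem2, a lipid receptor of macrophages, fell by 1.65 on the log2 scale, with 0.767, 0.438 and 0.871 CPM in OV and 3.20, 1.65 and 1.79 CPM in 5NC. In whole tissue, more cells of a type and more RNA per cell cannot be told apart. The part of macrophage number in the antigen presentation result was not tested.

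Many lymphocyte markers had few reads. Of 33 T and NK cell markers in the table, 17 had enough reads to be tested and 1 was called higher, against 0.828% of all genes tested. Of the 17, 13 had a higher mean in OV and 4 a lower one, with a median log2 fold change of 0.70. Their median log2 ratio was 0.54, −0.11 and 0.51 in the T1, T2 and T3 pairs. The called gene was Itgal, the integrin LFA-1 alpha chain of leukocytes, with 5.69, 3.51 and 2.80 CPM in OV and 1.29, 1.71 and 1.47 CPM in 5NC. Its log2 fold change was 1.38 ± 0.29 (edgeR adjusted p = 0.0044). Without the T2 pair 10 of these markers were called higher, and without the T1 pair 0. The list summed to 63.2, 31.4 and 39.2 CPM in OV and to 30.0, 31.5 and 26.7 CPM in 5NC, so the T2 libraries of the groups were level. Cd3e, a chain of the T cell receptor complex, had 15 reads over the 3 OV libraries and 10 over the 3 5NC libraries. Of 8 tested B and plasma cell markers 0 were called, and Cd79a, a chain of the B cell receptor, had 5 reads in OV and 6 in 5NC. Of 6 dendritic cell, granulocyte and mast cell markers 0 were called; Cpa3, a mast cell protease, had a log2 fold change of −1.37 ± 0.41 (edgeR adjusted p = 0.0985), and its OV libraries were all below its 5NC libraries.

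Secreted immune signals followed in part, where 0.828% of all genes tested were called higher. Of 9 tested chemokines, 7 had a higher mean in OV and 2 a lower one, and 3 rose. The list median was 0.74 in the paired fit and −0.05 without the T1 pair. Its median log2 ratio was 1.79, −0.027 and 0.015 in the T1, T2 and T3 pairs, so only the T1 pair was raised as a list. Ccl8, a chemokine of the monocyte chemoattractant family, had 34.5, 34.0 and 13.6 CPM in OV and 5.90, 9.94 and 3.26 CPM in 5NC, a log2 fold change of 2.12 ± 0.16 (edgeR adjusted p = 3.68e-12) with the groups apart. Cxcl9 and Cxcl10, the interferon-induced ligands of the chemokine receptor CXCR3, rose by 2.05 and 1.78, with overlapping libraries. Of 14 complement genes, 8 had a higher mean in OV and 6 a lower one. The median log2 fold change was 0.21, against 0.0029 in the unpaired fit and −0.08 without the T2 pair. Cfi was lower in each pair, with log2 ratios of −0.93, −0.89 and −0.44, and did not pass. In the paired fit 2 complement genes rose: Serping1, the C1 inhibitor, by 0.78 and Cfb, factor B of the alternative pathway, by 1.71. The T1 library of OV held the highest level of both, 128 and 15 CPM, against 33.7 to 60.5 CPM and 1.38 to 2.77 CPM in 5NC. Of 6 checkpoint and tolerance genes 0 were called, and Cd274 (PD-L1), itself interferon-induced, had a log2 fold change of 0.75 ± 0.21 (edgeR adjusted p = 0.0626). Cp, ceruloplasmin, a copper-carrying ferroxidase, had 45.1, 33.7 and 26.1 CPM in OV and 18.9, 10.9 and 13.1 CPM in 5NC, with a log2 fold change of 1.29 ± 0.13, although 3NC replicate 2 reached 39.5 CPM.

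Called genes outside the lists were read after their values were seen. Examples of genes of myeloid and lymphoid cells are Mpeg1, a pore-forming protein of phagocytes, which rose by 0.92, Cybb, the catalytic subunit of the phagocyte oxidase, by 1.39, and Il2rg, the shared cytokine receptor chain, by 2.72. In the other direction Gpnmb, a glycoprotein of macrophages, had 2.81, 0.626 and 0.684 CPM in OV and 19.1, 1.12 and 2.30 CPM in 5NC and fell by 2.09 (edgeR adjusted p = 0.000218). Kifap3 and Hfm1, both on no list, rose by less. Kifap3, a kinesin-associated protein of cilia, had 432, 428 and 562 CPM in OV and 329, 272 and 405 CPM in 5NC, a log2 fold change of 0.51, and 3NC held 448 to 532 CPM. Hfm1, a helicase of meiotic crossover formation, had 40.0, 38.8 and 56.7 CPM in OV and 25.8, 24.4 and 37.6 CPM in 5NC, a log2 fold change of 0.63, and 3NC held 37.3 to 41.7 CPM. For both genes the 3NC libraries lay within or near the range of OV, and it was 5NC that was low. By the unpaired fit, Lhfpl3 and Phyhip were among the 5 higher genes of smallest p. Lhfpl3 had 1.15, 2.07 and 1.99 CPM in OV and 0.492, 0.263 and 0.320 CPM in 5NC, a log2 fold change of 2.22 ± 0.43, and 1.70 to 2.10 CPM in 3NC. Phyhip had 15.1, 12 and 6.96 CPM in OV and 1.04, 3.09 and 1.6 CPM in 5NC, a log2 fold change of 2.57 ± 0.38.

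Among lower genes, the steroid-producing Leydig cells had 4 of 25 tested genes called and 0 higher, with 21 of 25 lower in mean and a median log2 fold change of −0.27. Hsd3b1, a steroid dehydrogenase of testosterone synthesis (chromosome 3, 98842356 to 98859794), had 123, 117 and 155 CPM in OV and 217, 155 and 188 CPM in 5NC, a log2 fold change of −0.49 ± 0.10 (edgeR adjusted p = 0.00371), with the T3 library of OV and the T2 library of 5NC nearly level. Lhcgr, the receptor for luteinising hormone, had 6.46, 9.33 and 15.1 CPM in OV and 18.4, 13.3 and 23.4 CPM in 5NC, a log2 fold change of −0.87 ± 0.17, with the T3 library of OV above the T2 library of 5NC. Nr5a1, the factor SF-1 that drives steroid genes, fell by 0.45, and Ren1, a renin, by 1.22. Ren2, its close paralog, fell by 1.98, and reads may be shared between these paralogs. The enzymes and carrier that define the pathway did not pass: Star had a log2 fold change of −0.48, Cyp11a1 −0.52 and Cyp17a1 −0.73. The summed list gave 2105, 2337 and 3001 CPM in OV and 4203, 2649 and 3186 CPM in 5NC, so the T1 library of 5NC stood far above the rest. Without the T1 pair, 0 Leydig genes were called and the median was −0.16.

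Sertoli and peritubular muscle genes had a small number of calls each, where 0.52% of all genes tested were called lower. Of 27 Sertoli genes, 24 were lower in mean and 2 fell, with a median log2 fold change of −0.23, which was −0.17 with GC content corrected. Inha, the inhibin alpha subunit that restrains follicle-stimulating hormone (chromosome 1, 75507077 to 75510366), had 45.8, 51.2 and 39.8 CPM in OV and 98.8, 70.4 and 68.1 CPM in 5NC, a log2 fold change of −0.78 ± 0.11 (edgeR adjusted p = 5.93e-05). Amhr2, the receptor for anti-Mullerian hormone, fell by 0.37, and neither gene passed once GC content was corrected. Inha is also made by Leydig cells, and both genes had their highest value in the T1 library of 5NC. Of 22 peritubular and smooth muscle genes, with a median of −0.23, 3 fell in edgeR and 0 in DESeq2 with the same pairs: Acta2, smooth muscle actin, with 30.3, 26.3 and 24.4 CPM in OV and 44.5, 34.6 and 37.4 CPM in 5NC, by 0.52 on the log2 scale, Smtn, smoothelin, by 0.73, and Myl9, a myosin light chain, by 0.47. The groups were apart for these 3 genes. Of 24 extracellular matrix genes 1 fell, the laminin chain Lamb2, by 0.46. Of 18 endothelial genes and 26 junction genes of the blood-testis barrier 0 were called, with medians of −0.14 and −0.09. Of 10 genes of the rete testis and efferent ducts 1 fell, the carbonic anhydrase Car4, by 0.95. Of 10 fat cell genes, with a median of −0.28, 1 fell, the fatty acid carrier Fabp4, by 1.09. Of 6 erythrocyte genes 0 were called.

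**Figure D4:**
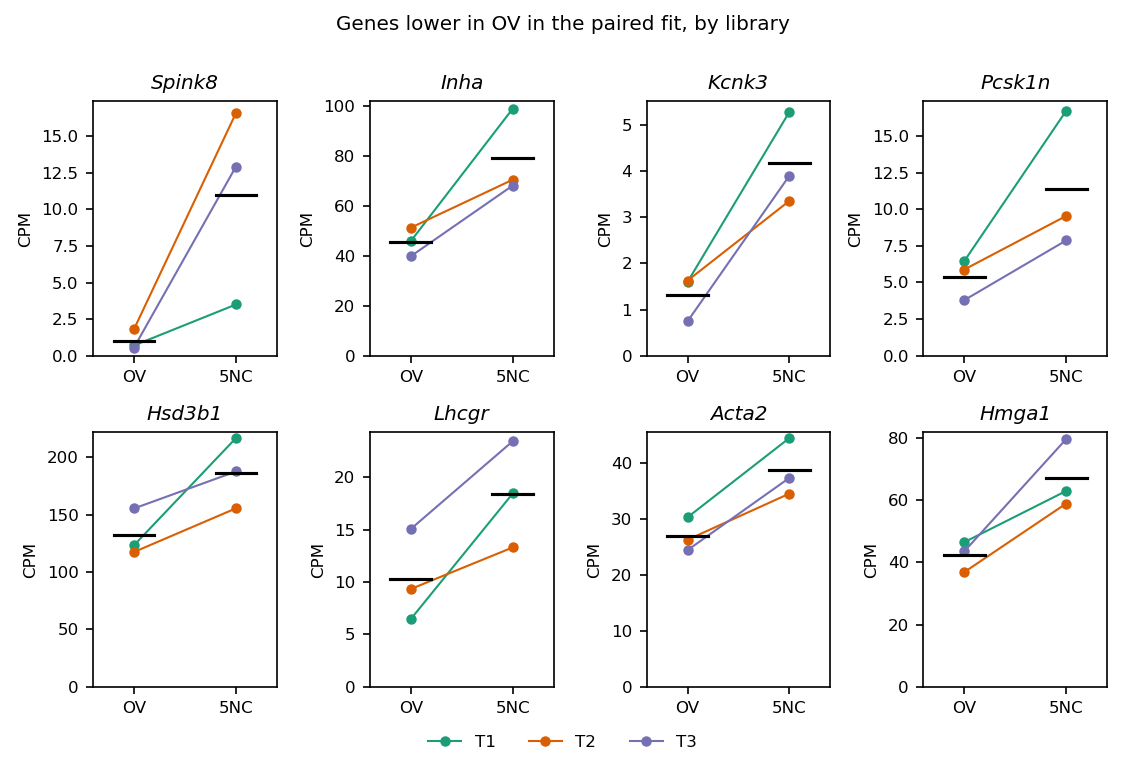
CPM of 8 genes called lower in OV, in the 3 OV and 3 5NC libraries; lines join libraries of the same T number and black bars are group means. All 24 lines rise to the right, from OV to 5NC, and only for Lhcgr do the libraries of the groups overlap.

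The largest decrease that passed the test lay in an epididymal gene. Spink8, a protease inhibitor of the epididymis (chromosome 9, 109812203 to 109826628), had 0.703, 1.82 and 0.560 CPM in OV and 3.50, 16.6 and 12.9 CPM in 5NC, a log2 fold change of −3.37 ± 0.30 (edgeR adjusted p = 1.41e-05), and 0.449 to 1.31 CPM in 3NC. Over the 12 tested genes of the epididymal list, 4 had a higher mean in OV and 8 a lower one, 2 fell, and the median log2 fold change was −0.11. Crisp1, a sperm-coating protein made by the epididymis, had 0.320, 9.20 and 0.187 CPM in OV and 10.02, 93.5 and 89.9 CPM in 5NC. The T2 and T3 libraries of 5NC thus stood above all others, and 3NC held 0.321 to 5.90 CPM. Adam7, a metalloprotease-like surface protein of the epididymis, had 0, 1.13 and 0 CPM in OV and 0.553, 5.20 and 17.7 CPM in 5NC. Neither passed. In the other direction, the defensin Defb30 had a log2 fold change of 0.71 ± 0.36 and did not pass. Outside the list, and chosen after the values were seen, Serpina1f, a serpin, had 0.639, 0.939 and 0.560 CPM in OV and 1.48, 12.6 and 6.98 CPM in 5NC and fell by 3.09 (edgeR adjusted p = 0.012), and Wfdc16, of the WAP four-disulfide core family, fell by 3.06 (edgeR adjusted p = 0.00306). The whole list of 27 measured epididymal genes summed to 328 to 347 CPM in OV and to 322, 504 and 473 CPM in 5NC, whereas the epididymal markers Gpx5 and Lcn9 had at most 2 reads in any of these 6 libraries. Npc2, a cholesterol carrier also abundant in the epididymis, fell by 0.37. How epididymal tissue in the dissected samples bears on these genes was not tested.

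Further genes by the smallest p-values were of mixed function. Kcnk3, the background potassium channel TASK-1, had 1.6, 1.63 and 0.746 CPM in OV and 5.29, 3.36 and 3.90 CPM in 5NC, a log2 fold change of −1.67 ± 0.29, and was among the 5 lower genes of smallest p in the unpaired fit. Hmga1, an architectural chromatin protein, had 46.4, 36.8 and 43.5 CPM in OV and 62.9, 58.8 and 79.6 CPM in 5NC, a log2 fold change of −0.66 ± 0.10. Pcsk1n, an inhibitor of a prohormone convertase, fell by 1.05, Atp5e, the epsilon subunit of ATP synthase, by 0.71, Pkdcc, a secreted kinase, by 0.78, and Slco3a1, an organic anion transporter, by 0.56. Ramp1, a subunit of the receptor for calcitonin gene-related peptide, fell by 1.48 and Csdc2, an RNA-binding protein, by 0.94. Dynlt1c, a dynein light chain with near-identical neighbours, fell by 0.72, and its 3NC libraries spanned 160.0 to 435 CPM. Cholesterol synthesis genes were noticed after the values were seen: Dhcr7 fell by 0.77 and Idi1 by 0.43.

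Few germ cell genes were called, as was so for all genes tested, of which 1.35% were called in either direction. At that share, lists of this size would hold few calls or none. Of 24 genes of meiotic prophase, 17 of pachytene and dividing spermatocytes, 19 of round spermatids and 22 of elongating spermatids, 0 were called, and the list medians lay between −0.04 and 0.06. Named members higher in OV included Mlh3, a mismatch repair protein of crossovers, with 0.26 ± 0.10 on the log2 scale. The acrosomal protein Spaca1 and the sperm ion channel subunit Catsper3 had 0.20 ± 0.09 and 0.20 ± 0.10. Mei1, on the meiotic prophase list, had −0.53 ± 0.21, lower in each of the 3 pairs and with the groups apart. Pou5f2, on the pachytene list, had −0.17 ± 0.12. Of 13 genes of undifferentiated spermatogonia, with a median of −0.09, 1 fell, the pluripotency factor Pou5f1, by 1.12. It had 1.34, 2.25 and 1.24 CPM in OV and 2.95, 3.82 and 3.58 CPM in 5NC. Pou5f1 did not pass with GC content corrected, without the T3 pair or in DESeq2 with the same pairs. Of 11 genes of differentiating spermatogonia 0 were called, but 10 were lower in mean and the median was −0.19. The list summed to 697 to 715 CPM in OV and to 771 to 857 CPM in 5NC. Its pair medians were −0.36, 0.04 and −0.14 for T1, T2 and T3. Of 23 stress response genes and 20 immediate early genes 0 were called.

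Ribosomal protein genes were lower by little. Of 46 tested, 45 were lower in mean and 31 did not overlap between the groups, against 8.09% of all genes, with a median log2 fold change of −0.20, and 4 fell. Rpl36 had 98.4, 95.2 and 73.7 CPM in OV and 117, 137 and 109 CPM in 5NC, a log2 fold change of −0.44 ± 0.09 (edgeR adjusted p = 0.00528). Rps15, Rps28 and Rpl13a fell by 0.37, 0.35 and 0.34. The T3 library of OV held the lowest level of all 4, and 0 of the 46 passed with GC content corrected.

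Base composition moved with the difference between the groups. Over 14898 genes with at least 1 CPM, the Spearman correlation across genes between the log2 fold change and the GC content of the transcript was −0.52, and it was −0.21, −0.18 and −0.64 in the T1, T2 and T3 pairs. The 25% of genes lowest in GC had a median log2 fold change of 0.12 and the 25% highest in GC −0.15. In the T3 pair these medians were 0.25 and −0.28. Genes called higher had a median GC content of 45.9% and genes called lower 55.7%, against 49.6% over all genes tested. Of the genes called higher, the 53 on immune lists had a median of 49.4% and the 79 on no list 42.8%. With GC content and length corrected in each library in the paired fit, an alternative chosen after seeing the data, edgeR called 86 genes, 68 higher and 18 lower, of which 84 were among the 215. All 11 class I genes and all 6 class II genes remained, as did 11 of the interferon response, 4 of the GTPases and 5 of the macrophage genes. Of the lower lists, 2 Leydig genes (Hsd3b1 and Lhcgr), 1 peritubular gene (Acta2) and Spink8 remained, and 0 Sertoli and 0 ribosomal genes. Inha then had an edgeR adjusted p of 0.063 and Rpl36 one of 0.217.

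**Figure D5:**
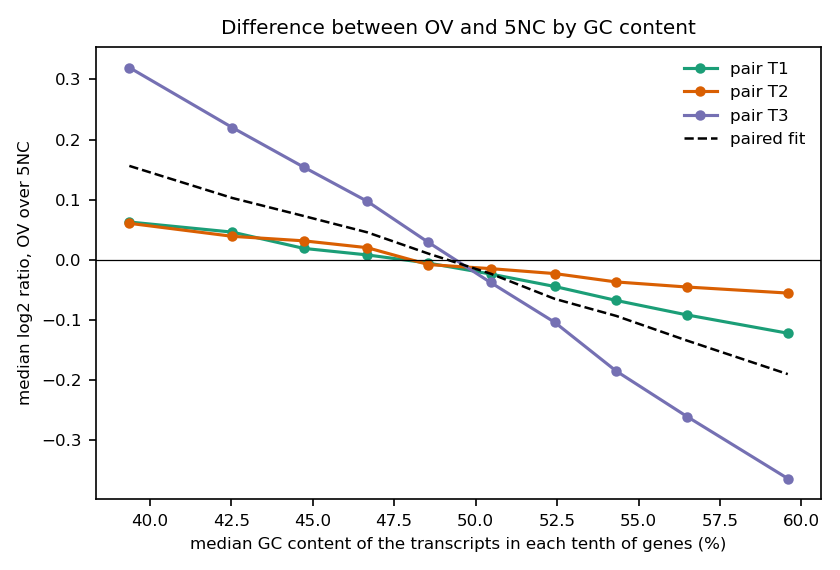
Median log2 ratio of OV over 5NC in 10 equal groups of 14898 genes ordered by the GC content of their transcripts (%), for each pair and for the paired fit (dashed). All 4 lines descend with GC content, the T3 pair by far the most.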

How the data were processed

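RNA-seq libraries of total RNA from F0 mouse testis were compared, 3 from OV and 3 from 5NC, within a table of 12 libraries in 4 groups. The authors deposited expected counts (estimated counts of reads) for 20718 genes in each library, raw per the file headers; of these 88.0% were whole within 1e-06, and normalised values whose unit, FPKM, was inferred here from the deposited values. The build was mm10 per the submitters' processing notes. The aligner, counter, annotation and strandedness are not stated there or in the labels. A further 18 per-sample columns, of no library in this series, were left out. Of the gene identifiers, 20564 (99.3%) matched the reference gene table, which gave coordinates.

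Expected counts were rounded and tested with edgeR 4.0.16 in R 4.3.3 (robust quasi-likelihood, TMM, filterByExpr with a minimum count of 10 and total of 15, prior count 0.125, Benjamini-Hochberg adjusted p under 0.05). One fit took all 12 libraries without covariates. The second took the 6 OV and 5NC libraries with the T number of the sample titles as a block, with error estimates shared across genes. Deviations from the group means correlated by r = 0.19, 0.20 and 0.18 across genes between OV and 5NC libraries of the same T number, and by −0.18 to −0.03 between other numbers. Deviations cancel within a group, so positive values for the same number force the others to be negative on average, which is no further support. The same-number values passed the minimum of 0.1 set for pairing. However, the pairing is inferred from the data that were then tested, and the labels do not say what the T number marks. SE was taken as log2 fold change divided by the square root of F. Scripts were tested on simulated data.

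Named genes were the 10 higher and 10 lower called genes of smallest p with a mean of at least 1 CPM, the same sign in 3 pairs, no overlap and a symbol that is not a gene model (Gm, LOC, Rik or a bare number), up to 4 called members of each of 30 gene lists (otherwise up to 2 of smallest unpaired p), and the 5 higher and 5 lower genes of smallest unpaired p under the same conditions. A few items are not reported here. Members, lists and tests were chosen with earlier results of these data known. Lists are described by counts and medians beside those of all genes. Alternatives were DESeq2 1.42.0, limma 3.58.1 (voom, and log2 FPKM with pseudocounts of 0.1 and 1), other normalisation and filters, each library or pair left out, and GC and length correction. Floors cover counting error only. Promoter sequences are from RefSeq, GRCm38.p6.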

Additional observations from a re-analysis of the deposited data

Results flagged for a closer look

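In the fit of all 4 groups, the difference of OV over 5NC was set against the difference of KD over 3NC with an interaction contrast. 3NC was taken here as the control of KD. The contrast also holds any difference between the control groups, which cannot be told apart from opposed effects of overexpression and knockdown. Of 16320 genes tested, 10 passed (edgeR quasi-likelihood, adjusted p under 0.05), and 3 of them are named by the rule used here.

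Lhfpl3 differed by 3.3 on the log2 scale (edgeR adjusted p = 0.0218), with 2.25 for OV over 5NC and −1.05 for KD over 3NC. Its 5NC libraries held 0.263 to 0.492 CPM, below all 9 others.

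Kcnk3 differed by −2.74 (edgeR adjusted p = 0.0140), with −1.65 for OV over 5NC and 1.09 for KD over 3NC. OV held 0.746 to 1.63 CPM and 5NC 3.36 to 5.29 CPM, while KD held 3.50 to 4.47 CPM and 3NC 1.64 to 2.05 CPM.

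Myc, a transcription factor of growth and an immediate early gene, differed by 3.75 (edgeR adjusted p = 0.0117), with 0.94 for OV over 5NC and −2.80 for KD over 3NC. OV held 0.689 to 1.09 CPM, 5NC 0.329 to 0.640 CPM and KD 0.318 to 0.842 CPM, and the 3NC libraries stood apart at 4.2 to 4.92 CPM.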

How the results depend on the processing

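Without pairing, the 0 calls of the fit of all groups became 46 with DESeq2 (25 higher, 21 lower, 33 of them among the 215 of the paired fit) and 7 with limma voom and sample weights, and 0 to 5 with each OV or 5NC library left out. They stayed at 0 with the other alternatives run, namely 6 libraries alone (smallest edgeR adjusted p = 0.309), without 3NC replicate 2, RLE, no filter, 1 CPM, limma on FPKM and GC correction. The replicate block on 6 libraries gave 215, and the block on all 4 groups 0. The 215 calls of the paired fit became 0 without the block, 444 without a filter on low counts, 99 with DESeq2 and the block (79 shared), 86 with the block and GC and length correction (84 shared), and 268 to 436 with each pair left out. The calls shared with the 215 were 117 without T1, 165 without T2 and 174 without T3. RLE gave 254, a filter at 1 CPM 212 and voom with the block 274.

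Of 60 called named genes, 19 lost the call without T1, among them Itgal, Laptm5, C1qa, Hsd3b1, Lhcgr, Smtn, Myl9 and Rpl13a, 4 without T2 and 7 without T3. Without T1, T2 and T3 in turn, the called members numbered 11, 11 and 13 for class I, 7, 6 and 7 for class II, 13, 14 and 20 for the interferon response, 13, 16 and 13 for the GTPases, 0, 10 and 1 for T and NK cells, 2, 5 and 4 for chemokines, all higher, and 0, 7 and 8 for Leydig cells, 2, 3 and 3 for Sertoli cells, 1, 3 and 2 for peritubular cells and 3, 1 and 2 for ribosomal proteins, all lower, apart from 1 chemokine lower without T3. Among genes without a call, the sign reversed with a library left out for Mzb1 (−0.50 to 1.51 over such fits, lowest without OV replicate 1), Hbb-b2 (−0.24 to 1.09, below 0 without OV replicate 1 and, at −0.014, without 5NC replicate 2) and Alas2 (−0.14 to 0.025, above 0 without OV replicate 2, and 0.000389 with GC and length correction). With DESeq2 and the block the lists had 10 class I, 5 class II, 8 interferon response, 11 GTPase, 2 chemokine and 2 complement genes called higher, 3 Leydig, 2 Sertoli, 2 epididymal and 1 ribosomal gene lower, and 0 on every other list, macrophages, T and NK cells and peritubular cells among them. The causes were not tested. At these depths genes under 1 CPM rest on few reads.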
